A study of Homo sapiens with 6 samples.

Results

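Lamins and chromatin proteins are among the markers by which senescent cells are recognised, and 10 of their genes were followed here by name among the 61228 gene names of the count table: *LMNB1*, *LMNB2*, *LMNA*, *HMGB1*, *HMGB2*, *HMGA1*, *HMGA2*, *H2AX*, *MACROH2A1* and *SIRT1*. HBECs, wild-type immortalized human bronchial epithelial cells, received cockroach extract (CRE) for 24 h in 3 libraries, or CRE after pre-treatment with VAF347 at 20 μM in 3 libraries. VAF347 is a small-molecule agonist of AhR, the aryl hydrocarbon receptor, which moves to the nucleus and regulates transcription once a ligand binds it. All cells were therefore exposed to CRE, and untreated cells were not analysed here, so the data address what VAF347 did to these transcripts in CRE-exposed cells and not what CRE did. The cells are a single line, and the labels do not say whether the replicates are separate cultures, so the p-values measure the spread between these libraries.

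The nuclear lamina is a meshwork of A-type and B-type lamins beneath the inner nuclear membrane that anchors heterochromatin. When cells enter senescence, lamin B1 is typically lost, HMGB2 falls, HMGB1 leaves the nucleus and is secreted, and HMGA proteins and macroH2A gather in condensed heterochromatin foci. H2AX, phosphorylated around DNA breaks, gives the γ-H2AX signal that the study stained for, and SIRT1 is a deacetylase whose protein declines in many senescent cells. Several of these changes take place in the protein, its modification or its position, which counts of RNA do not show.

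None of the 10 transcripts changed at the thresholds. With edgeR's quasi-likelihood test, 0 of 10 had an adjusted p under 0.05, against 5.42% of the 15373 genes tested, with 0 lower (4.07% of all genes) and 0 higher (1.35%), and hence 0 also passed the added threshold of an absolute log2 fold change over 0.5, which 2.21% of genes passed. At an unadjusted p under 0.05 there were 2, *LMNB1* and *SIRT1*, where 20.8% of all genes passed. DESeq2's Wald test and limma on log2(TPM + 1) each called 0, with 0 at an unadjusted p under 0.05. Over all genes, DESeq2's Wald test called 641 of 15373, and limma called only 87 of 15952. The shares of all genes at an unadjusted p were not counted for these 2 tests. All 10 passed the filter on low counts. The log2 fold changes were negative in 8 and positive in 2, with a median of -0.06 beside 0.01 over all genes tested. For 9 of the 10, the 95% interval of the log2 fold change lay wholly within 0.5 of no change, so a change as large as the fold threshold lay outside their intervals. *HMGA2* was the exception.

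**Figure D1:**
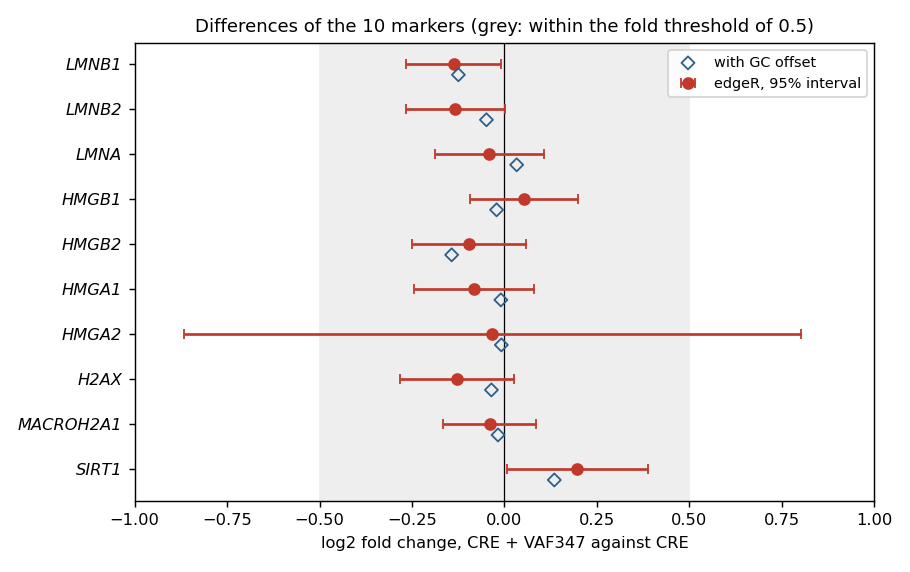
The horizontal axis gives the log2 fold change between CRE + VAF347 and CRE for each of the 10 genes, with filled circles and bars for the edgeR estimate and its 95% interval, and open diamonds for the estimate after a correction for GC content. The grey band marks an absolute log2 fold change of 0.5, and the intervals of 9 genes lie inside it, while that of *HMGA2* runs from -0.87 to 0.80.

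The library totals were 8873160 to 10750283 counts, and a single count was worth 0.0935 to 0.112 counts per 1000000 (CPM), after scaling by TMM. The AhR target *CYP1A1* had 0.467 to 0.785 CPM in the CRE libraries and 43.3 to 51.0 CPM with VAF347, and *CYP1B1* rose by a log2 fold change of 3.14, in the direction that the labels give. Pearson's r of log2 CPM, across genes with a mean log2 CPM over 3, was 0.986 to 0.995 between libraries of a group. CRE replicate 3 stood farther from CRE replicates 1 and 2 than these did from each other, the chi-square of counts averaging 9.21 and 8.96 per gene against 2.46. Of 10 epithelial markers fixed as a list, 8 were tested, and their summed level was 4856 to 5134 CPM with CRE and 4616 to 4751 CPM with VAF347. By the edgeR test 3 of the 8 fell, where 4.07% of all genes did. These were *KRT7*, *KRT17* and *KRT19*, named after their values were seen, and the list median was -0.22. Of the 8, 2 had positive log2 fold changes, *KRT18* at 0.11 and *EPCAM* at 0.03. The other 6 were negative, among them *KRT8* at -0.05 and *CDH1* at -0.18, which did not pass. With the GC offset described below 0 passed at a median of -0.19, and 0 passed without CRE replicate 2, without any 1 of the CRE + VAF347 libraries, with limma or with an offset for transcript length. Of the basal cell keratins, *KRT17* had 150.4 CPM with CRE and 125.1 CPM with VAF347, *KRT5* had 15.9 and 12.3 CPM, and *KRT14*, like the basal cell factor *TP63*, had at most 2 counts in any library. Of 11 markers of other cell types, 6 had no more than 3 counts in every library, 1 fell (*VWF*, named after its values were seen, from 3.29 to 1.20 CPM, a call lost without CRE + VAF347 replicate 2 or 3, with DESeq2's Wald test and with limma), and *COL1A1* made up most of the sum, which was 47.2 to 55.0 CPM with CRE and 42.7 to 45.8 CPM with VAF347. Their part in the values below was not tested. In bulk RNA, fewer cells that express a gene and less of its RNA per cell cannot be told apart.

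The promoters of the members were read for the AhR core letters, since the treatment was an AhR agonist. RefSeq promoters of GRCh38.p14, windows that end shortly after the annotated start, were matched for 8 members, and not for *HMGB2* and *HMGA2*. On either strand, GCGTG was found in *LMNB1*, *LMNB2*, *HMGA1*, *H2AX* and *SIRT1*, and not in *LMNA*, *HMGB1* or *MACROH2A1*, while 36.54% of 35116 promoters of the same length held it. The windows are written on the strand of the gene with the matched letters in capitals, CACGC being the same core read on the opposite strand. They are shown because these stretches of sequence stand beside transcripts that did not pass the test.
LMNB1, chr5:126776631-126776659, plus strand, match from base 21 after the start: ggataaggttacCACGCccgcggtggccg
LMNB2, chr19:2457030-2457058, minus strand, match from base -87: cttcaacttccgGCGTGccccgcgcgcgc
HMGA1, chr6:34236625-34236653, plus strand, match from base -236: tgactcctctgcGCGTGccttcccacacc
HMGA1, chr6:34236703-34236731, plus strand, match from base -158: ccaggcctcccaCACGCccctccctgccg
H2AX, chr11:119095658-119095686, minus strand, match from base -209: agttggcagtctGCGTGctacccctcctc
SIRT1, chr10:67884428-67884456, plus strand, match from base -216: ttggctgcactaCACGCtcgccacaaaga
SIRT1, chr10:67884551-67884579, plus strand, match from base -93: gtggtctggcccGCGTGggtggcgggagc

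The *SIRT1* promoter also held 2 copies of CACGTG, the E-box that MYC and related factors bind, which was found in 7.26% of all promoters and in no other member matched. They are shown because the study follows MYC.
SIRT1, chr10:67884521-67884550, plus strand, match from base -123: gcctccgcccgcCACGTGacccgtagtgtt
SIRT1, chr10:67884600-67884629, plus strand, match from base -44: gatggggcgggtCACGTGatggggtttaaa
These matches describe the letters only. The RefSeq starts used for *HMGB1* and *MACROH2A1* lie inside the GENCODE genes, which begin farther upstream.

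The levels of the 10 genes were compared per length, in the TPM values that the authors deposited, over all 6 libraries. *HMGB1* was the most abundant with 1472 ± 23 TPM (SD, n = 6), followed by *HMGB2* with 522.4 ± 39.6 TPM (SD, n = 6). *MACROH2A1* at 345.4, *LMNB1* at 297.8, *HMGA1* at 227.2 and *LMNA* at 199.4 TPM came next. Along this row the ranges of neighbours overlapped, so that their order was not larger than the spread between libraries. *H2AX* at 98.9 and *LMNB2* at 97.2 TPM also overlapped, *SIRT1* had 23.3 ± 3.2 TPM (SD, n = 6), and *HMGA2* had 1.25 ± 0.51 TPM (SD, n = 6). The ranges of *HMGB1* and *HMGB2*, of *HMGB2* and *MACROH2A1*, of *LMNA* and *H2AX*, of *LMNB2* and *SIRT1*, and of *SIRT1* and *HMGA2* did not overlap. On the CPM scale, 8 of the 10 lay at percentile 89.3 or above among all genes tested. For the 9 members other than *HMGA2*, the median standard error of the log2 fold change was 0.07.

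**Figure D2:**
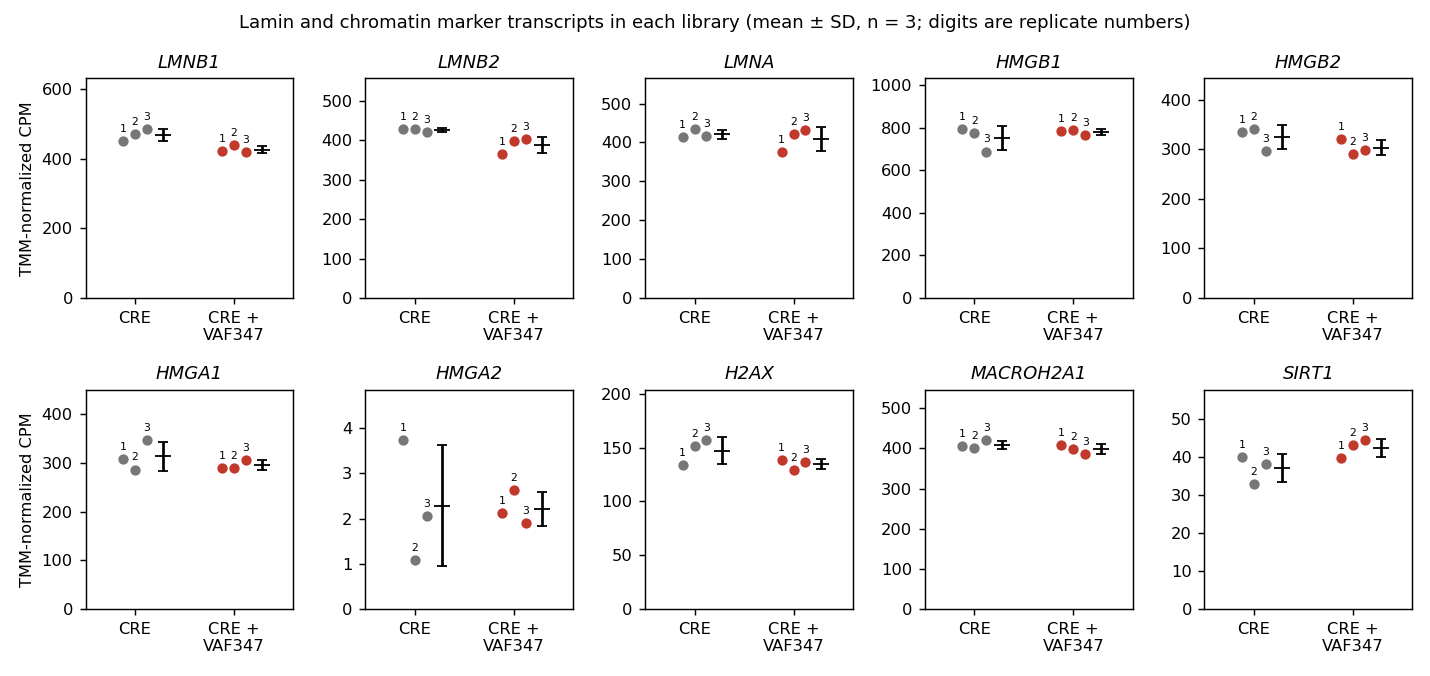
Each panel gives the TMM-normalized CPM of a gene (vertical axis, from 0) in the 3 CRE libraries (grey) and the 3 CRE + VAF347 libraries (red), with replicate numbers above the points and the mean ± SD beside them. The groups of *LMNB1* and *LMNB2* do not overlap, by a gap of 12.1 CPM for *LMNB1* and 17.3 CPM for *LMNB2*, and those of the other 8 genes do. Over all genes tested, the groups of 27.3% do not overlap in CPM.

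*LMNB1* encodes lamin B1 and lies on chromosome 5 of GRCh38 from 126776623 to 126837020. It had 450.6, 469.7 and 485.0 CPM in CRE replicates 1 to 3, and 421.6, 438.5 and 418.1 CPM in CRE + VAF347 replicates 1 to 3. All CRE libraries were above all CRE + VAF347 libraries, which was also so, in either direction, for 27.3% of the genes tested. The means were 468.4 ± 17.2 (SD, n = 3) and 426.1 ± 10.9 CPM (SD, n = 3), a log2 fold change of -0.14 (SE, standard error, 0.06, with a 95% interval from -0.26 to -0.01) and an adjusted p of 0.210 from edgeR's quasi-likelihood test. The interval leaves out 0 before the adjustment for the number of genes. In TPM the groups overlapped, with 277.6, 292.6 and 391.8 for CRE and 276.0, 283.0 and 265.5 for CRE + VAF347. CRE replicate 3 was the highest library on both scales. Without it the log2 fold change in counts was -0.11, with an adjusted p of 0.180.

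*LMNB2*, the other B-type lamin gene, on chromosome 19 from 2427638 to 2456959, had 428.0, 427.4 and 419.6 CPM with CRE and 364.0, 396.6 and 402.3 CPM with CRE + VAF347. These groups did not overlap in CPM either, and CRE + VAF347 replicate 1 was the lowest library. In TPM they overlapped, with 96.9, 96.9 and 114.6 for CRE and 85.3, 91.9 and 97.4 for CRE + VAF347. The log2 fold change was -0.13 (SE 0.06, 95% interval -0.27 to 0.00, adjusted p = 0.241 from the edgeR test). *LMNA*, on chromosome 1 from 156082573 to 156140081, encodes both lamin A and lamin C, which gene counts do not separate. It had 413.7, 434.2 and 415.9 CPM with CRE and 374.7, 421.7 and 432.2 CPM with VAF347, so that the CRE values lay within the range of the others except for 1 library above it. Its log2 fold change was -0.04 (SE 0.07, adjusted p = 0.773).

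A loss of lamin B1 against a steady lamin A would show as a lower ratio within a library, which needs no scaling between libraries. The *LMNB1* to *LMNA* ratio of TPM values was 1.48, 1.49 and 1.70 in the CRE libraries and 1.63, 1.39 and 1.27 with VAF347. The groups overlapped, and their means of 1.56 ± 0.12 (SD, n = 3) and 1.43 ± 0.19 (SD, n = 3) differed by -0.12 on the log2 scale (exact permutation test, two-sided p = 0.4, and 0.4 adjusted over the 2 ratios tested). The difference was -0.06 without CRE replicate 3, -0.04 without CRE + VAF347 replicate 3 and -0.22 without CRE + VAF347 replicate 1. The smallest p that 3 against 3 libraries allow is 0.1.

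*HMGB1* and *HMGB2* encode HMG-box proteins that bend DNA, and HMGB1 outside the cell acts as an alarmin. *HMGB1*, on chromosome 13 from 30456704 to 30617597, had 793.6, 773.0 and 688.4 CPM with CRE and 785.3, 787.9 and 764.6 CPM with VAF347. The groups overlapped, and CRE replicate 3 was the lowest of the 6 libraries. Its log2 fold change was 0.05 (SE 0.07, 95% interval -0.09 to 0.20, adjusted p = 0.699 from the edgeR test). Processed copies of this gene carry near-identical sequence, and 11 of 48 rows named as *HMGB1* pseudogenes had counts, which made up 12.6% to 13.9% of the sum of gene and copies. How Salmon divided the reads is thus uncertain, but with the copies added the log2 fold change was also 0.05.

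*HMGB2*, on chromosome 4 from 173331376 to 173334432, had 335.1, 340.4 and 296.4 CPM with CRE and 319.9, 290.7 and 298.2 CPM with VAF347, again with CRE replicate 3 the lowest of its group. The log2 fold change was -0.10 (SE 0.07, 95% interval -0.25 to 0.06, adjusted p = 0.472 from the edgeR test). Without CRE replicate 3 it was -0.16 with an adjusted p of 0.0723, the lowest adjusted p of any member under any setting tried, and without CRE replicate 2 it was -0.06. The groups overlapped in CPM. In TPM, all CRE libraries, at 542.0, 547.2 and 570.8, were above the CRE + VAF347 libraries, at 522.9, 466.8 and 484.6. Limma on log2(TPM + 1) gave an adjusted p of 0.502. *HMGB2* was the only 1 of the 10 members whose groups did not overlap in TPM, and the share over all genes was not counted in TPM.

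The ratio of *HMGB2* to *HMGB1* TPM did not overlap between the groups. It was 0.369, 0.377 and 0.383 in the CRE libraries and 0.348, 0.317 and 0.336 with VAF347. The difference was -0.18 on the log2 scale, with an exact permutation p of 0.1 (two-sided), the smallest that this design can give and not under 0.05 (0.2 adjusted over the 2 ratios tested). Because the groups did not overlap, leaving out a library could not change the direction, and the difference was then 0.14 to 0.21 on the log2 scale. How often ratios of other genes separate the groups was not counted, while 27.3% of single genes did not overlap in CPM.

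**Figure D3:**
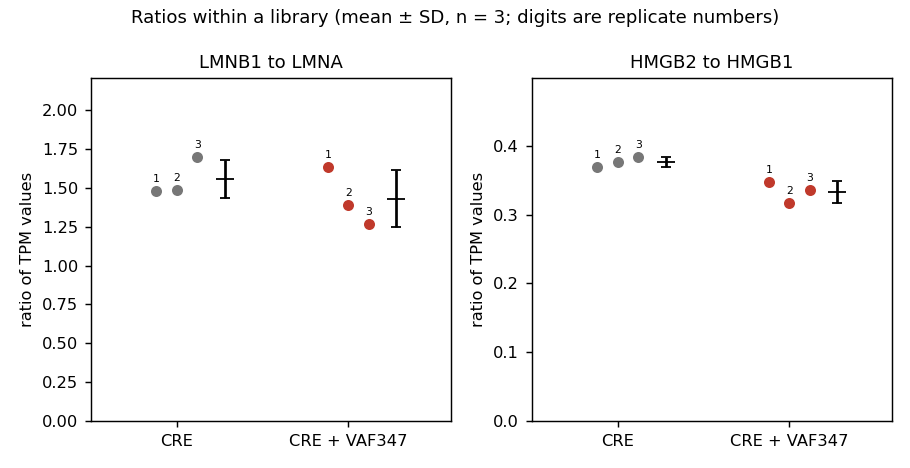
The vertical axes give the ratio of TPM values of *LMNB1* to *LMNA* (left) and of *HMGB2* to *HMGB1* (right) in each library, from 0, with the mean ± SD of 3 libraries beside the points. The lamin ratios of the groups overlap, whereas the 3 HMG-box ratios with VAF347, at 0.317 to 0.348, all lie below those with CRE, at 0.369 to 0.383.

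*HMGA1* and *HMGA2* encode AT-hook proteins that enter senescence-associated heterochromatin foci. *HMGA1*, on chromosome 6 from 34236873 to 34246231, had 306.9, 285.9 and 345.3 CPM with CRE and 289.7, 289.9 and 306.2 CPM with VAF347. CRE replicate 3 was the highest library and the groups overlapped (log2 fold change -0.08, SE 0.07, adjusted p = 0.563 from the edgeR test). Without CRE replicate 3 the log2 fold change was -0.01, and without CRE replicate 2 it was -0.14. *HMGA2*, on chromosome 12 from 65824460 to 65966291, was barely expressed, at 36, 11 and 22 counts after CRE and 19, 25 and 19 counts with VAF347. Its interval ran from 0.548-fold to 1.74-fold, so a change past the fold threshold lay inside it. The counts of the CRE libraries differed by more than those of the CRE + VAF347 libraries.

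*H2AX*, on chromosome 11 from 119093874 to 119095465, encodes the histone variant whose phosphorylated form marks DNA breaks. It had 133.5, 151.5 and 156.6 CPM with CRE and 138.1, 129.3 and 136.9 CPM with VAF347. CRE replicate 1 lay among the CRE + VAF347 libraries, and the other CRE libraries lay above them. The log2 fold change was -0.13 (SE 0.07, 95% interval -0.28 to 0.03, adjusted p = 0.330 from the edgeR test), and it ran from -0.19 without CRE replicate 1 to -0.08 without CRE replicate 3 when each library was left out. The libraries hold poly(A) RNA, so *H2AX* transcripts without a poly(A) tail were not captured. *MACROH2A1*, on chromosome 5 from 135334381 to 135399914, encodes a histone variant with a large additional domain, in splice forms that gene counts do not separate. It had 406.2, 400.2 and 419.6 CPM with CRE and 409.4, 398.6 and 384.8 CPM with VAF347, overlapping groups with a log2 fold change of -0.04 (SE 0.06, adjusted p = 0.738). The antisense gene *PITX1-AS1* shares 4706 exon bases with it and had 56 to 83 counts, at most 2.06% of those of *MACROH2A1*.

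*SIRT1*, on chromosome 10 from 67884656 to 67918390, encodes the deacetylase and was 1 of the 2 members with a positive value. It had 40.0, 33.0 and 38.1 CPM with CRE and 39.8, 43.1 and 44.3 CPM with VAF347. CRE replicate 1 was above CRE + VAF347 replicate 1 by 0.2 CPM, and the other CRE + VAF347 libraries were above every CRE library. The means were 37.0 ± 3.6 (SD, n = 3) and 42.4 ± 2.3 CPM (SD, n = 3), a log2 fold change of 0.20 (SE 0.09, 95% interval 0.01 to 0.39), which did not pass (adjusted p = 0.225 from the edgeR test). Without CRE replicate 2 the log2 fold change was 0.12, the lowest when each library was left out, and without CRE replicate 1 it was 0.25, the highest. In TPM the difference was within the spread, with 22.7 ± 4.8 (SD, n = 3) for CRE and 24.0 ± 1.1 (SD, n = 3) for CRE + VAF347.

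The fold changes of all genes moved with base composition, which bears on these genes because they differ widely in it. The mean GC content of the annotated transcripts was 62.3% for *LMNA*, 62.4% for *HMGA1*, 64.8% for *LMNB2* and 67.1% for *H2AX*, all in the highest of the 10 equal classes by GC content into which the more highly expressed genes were divided. The median log2 fold change over the 1111 genes of that class was -0.09, against -0.04, -0.08, -0.13 and -0.13 for the 4 members. At the other end, *HMGB1* with 40.9% and *SIRT1* with 42.1% GC fell in a class with a median of 0.07, against their own values of 0.05 and 0.20. *HMGB2* (43.8% GC) and *LMNB1* (50.8% GC) lay below their classes, at -0.10 against 0.06 and at -0.14 against -0.003. With an offset for GC content in each library, the log2 fold changes of *LMNB2* and *H2AX* shrank to -0.05 and -0.04, those of *LMNA* and *HMGB1* turned to 0.03 and -0.02, and *LMNB1*, *HMGB2* and *SIRT1* had -0.12, -0.14 and 0.13. With that offset 0 of 10 genes passed at an adjusted or an unadjusted p under 0.05, and the median over the members was -0.02.

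**Figure D4:**
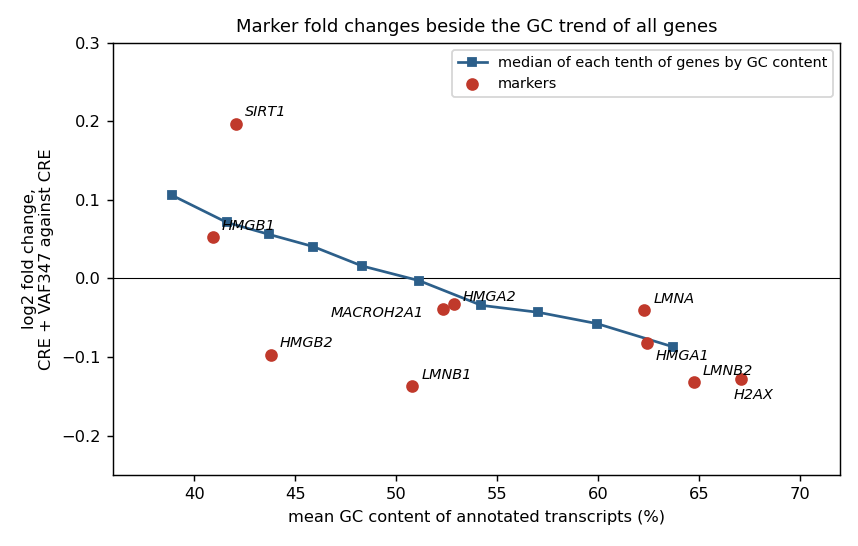
The horizontal axis gives the mean GC content of the annotated transcripts of a gene in percent, and the vertical axis the log2 fold change between CRE + VAF347 and CRE. The blue line joins the medians of the 10 classes of genes by GC content, which fall from 0.11 to -0.09, and the red points are the 10 markers, of which *SIRT1* lies farthest above the line and *HMGB2* and *LMNB1* farthest below it.

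Genes that work with these markers were examined as 6 lists, and 81 of their 82 genes were tested. By the edgeR test, 4 of the 81 (4.94%) had an adjusted p under 0.05, which was near the 5.42% of all genes tested, and 0 passed the fold threshold as well. The median log2 fold change of the 81 genes was 0.00. Limma on log2(TPM + 1) called 0 of 80, where it called 87 of 15952 genes overall. DESeq2's Wald test called 2 of 81, where it called 641 of 15373. With an offset for transcript length 0 of 81 were called, and 295 of 15373 overall. At an unadjusted p under 0.05 in the edgeR test there were 14 of the 81, where 20.8% of all genes passed.

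Among 18 genes of the lamina and nuclear envelope, such as the lamin B receptor, emerin and the LINC complex, 2 rose and 0 fell. Over all genes 1.35% rose and 4.07% fell. The median of the list was -0.01. *LEMD2*, an inner nuclear membrane protein, rose from 127.8 ± 6.5 (SD, n = 3) to 155.5 ± 5.0 CPM (SD, n = 3), a log2 fold change of 0.28 (adjusted p = 0.0228 from the edgeR test). *ZMPSTE24*, the protease that matures prelamin A, rose from 80.3 ± 4.0 (SD, n = 3) to 95.5 ± 3.0 CPM (SD, n = 3), a log2 fold change of 0.25 (adjusted p = 0.0422). In CPM the groups of both genes did not overlap, whereas in TPM those of *ZMPSTE24* did. The *LEMD2* call was lost without CRE replicate 1 (adjusted p = 0.0548) and without CRE + VAF347 replicate 1, 2 or 3 (0.106, 0.0828 and 0.133), and that of *ZMPSTE24* without CRE replicate 2 (0.127) and without CRE + VAF347 replicate 1, 2 or 3 (0.182, 0.131 and 0.150). *ZMPSTE24* also had an adjusted p of 0.0856 with DESeq2's Wald test, and of 0.118 with the GC offset, where its log2 fold change was 0.19.

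Among 21 heterochromatin factors, 0 rose and 1 fell, with a median of -0.04. This was *SUV39H1*, a histone methyltransferase that sets the repressive mark on histone H3 lysine 9, which fell from 43.9 ± 0.7 (SD, n = 3) to 33.4 ± 2.1 CPM (SD, n = 3), a log2 fold change of -0.39 (adjusted p = 0.0107 from the edgeR test). The call was lost without CRE + VAF347 replicate 1 or 2 (adjusted p = 0.0587 and 0.0660) and with the offset for transcript length (0.110). It was also lost with limma on log2(TPM + 1) (adjusted p = 0.255), and was kept with the GC offset (0.0232 from the edgeR test). Of 17 alternative settings, 11 kept it. Among 9 other histone variants, 1 fell, *MACROH2A2*, the paralog of *MACROH2A1*. It went from 44.2 ± 2.0 (SD, n = 3) to 36.3 ± 1.6 CPM (SD, n = 3), a log2 fold change of -0.29 (adjusted p = 0.0448), beside -0.04 for *MACROH2A1*. The difference between the paralogs was not tested. The *MACROH2A2* call was lost without CRE replicate 1 or 2 (adjusted p = 0.0561 and 0.112), without CRE + VAF347 replicate 1, 2 or 3 (0.120, 0.101 and 0.174) with the replicate number as a block (0.0715), with DESeq2's Wald test (0.132) and with the GC offset (0.0781), where the log2 fold change was -0.26.

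In the other 3 lists no gene passed the edgeR test, where 5.42% of all genes did, and 20.8% had an unadjusted p under 0.05. Of 7 other HMG proteins tested, 0 had an adjusted p under 0.05 and 0 an unadjusted p under 0.05, with a median log2 fold change of 0.13. Of 16 kinases, phosphatases and readers of H2AX, including ATM and ATR, 0 passed and 1 had an unadjusted p under 0.05, with a median of 0.03. Of the 10 other sirtuins and SIRT1 partners, 0 passed and 1 had an unadjusted p under 0.05, with a median of 0.01. DESeq2's Wald test and limma on log2(TPM + 1) also called 0 genes in these 3 lists. The nearest was *SIRT7*, named after its values were seen, at 46.1 ± 4.9 (SD, n = 3) and 57.3 ± 2.9 CPM (SD, n = 3) and an adjusted p of 0.0574 in the edgeR test, which passed with the GC offset, with no filter on low counts and without CRE replicate 1.

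**Figure D5:**
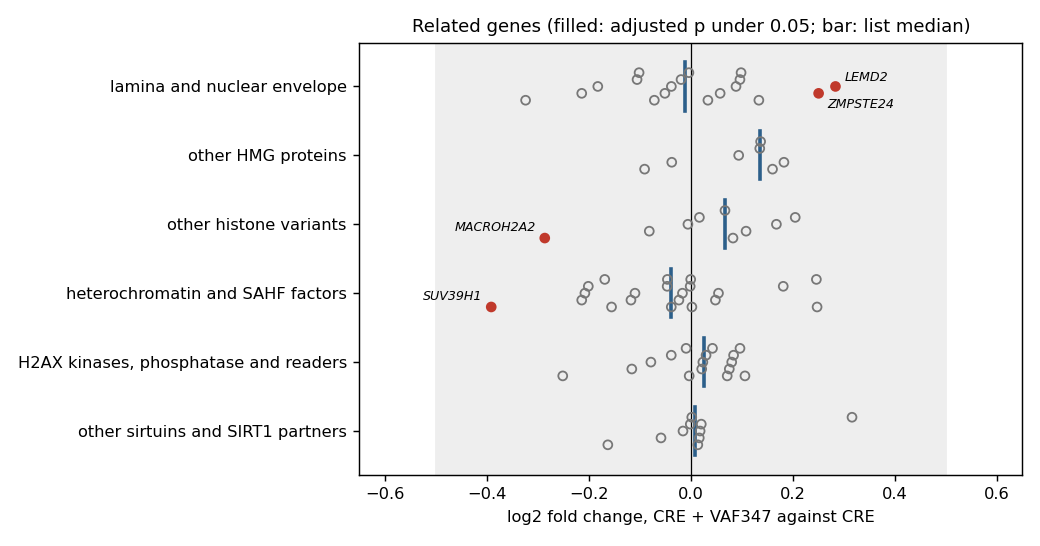
Each circle is a gene of the list named on the vertical axis, placed by its log2 fold change between CRE + VAF347 and CRE, with filled red circles for an adjusted p under 0.05 and blue bars for list medians. All genes lie inside the grey band of an absolute log2 fold change of 0.5, and *LEMD2*, *ZMPSTE24*, *MACROH2A2* and *SUV39H1* are the 4 that passed.

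*LMNB1* and *HMGB2* are more highly expressed in dividing cells, so 20 proliferation genes were measured beside them. Their summed level was 6647 to 7276 CPM with CRE and 6538 to 6678 CPM with VAF347. Their median log2 fold change was -0.04, or 0.02 without CRE replicate 3 and -0.08 with the GC offset. These 20 genes went both ways, with 8 positive and 12 negative values from -0.27 to 0.38. At an unadjusted p under 0.05 there were 8 of the 20, where 20.8% of all genes and 25.2% of those over 32 CPM passed. All 6 MCM helicase genes, *MCM2* to *MCM7*, had negative values, from -0.27 to -0.11. Of the other genes of DNA replication in the list, *RRM2* had 0.07, *PCNA* -0.05 and *TYMS* -0.08. The genes of later division other than *BUB1* went both ways. *AURKB*, *CCNB1*, *CDK1*, *AURKA*, *CCNB2* and *TOP2A* had 0.18, 0.17, 0.15, 0.13, 0.04 and 0.01. *CENPF*, *MKI67*, *PLK1* and *CCNA2* had -0.09, -0.06, -0.02 and -0.01. None of these but *MCM5* passed. In the edgeR test 1 rose and 1 fell, *BUB1* and *MCM5*, where 5.42% of all genes passed. Like the others, they were named after their values were seen. The count of 2 was 1 without CRE replicate 1, 0 without CRE replicate 2 or without any of the CRE + VAF347 libraries, and 4 without CRE replicate 3. With the GC offset or the offset for transcript length it was 1, *BUB1*. DESeq2's Wald test called 3, edgeR with no filter on low counts 4, and limma on log2(TPM + 1) 0. The part of cell division in the values of *LMNB1* and *HMGB2* was not tested. By the root mean square difference of centred log2 CPM over the 6 libraries, the genes most like *LMNB1* among 783 of similar level were *NSD2*, *EIF3C* and *PRRC2B*, at 0.018 each beside a median of 0.103. *EIF3C* has a near-identical copy, *EIF3CL*, so its counts are uncertain.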

How the data were processed

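RNA-seq of 6 HBEC libraries was analysed, 3 with CRE and 3 with CRE + VAF347, grouped by the sample labels, which name the table columns. The authors captured poly(A) RNA, sequenced read pairs and estimated fragments with Salmon, with hg38 named in the submitters' processing notes. The Salmon version, the annotation and the use of strand are not given in the sources used here. The deposited expected counts per gene symbol are not scaled to depth, and the deposited TPM values are scaled to length and depth by the authors. A table of the authors' own fold changes and p-values was not used.

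Expected counts were rounded (14.5% were not whole) and fitted with edgeR 4.0.16 in R 4.3.3, by the quasi-likelihood test after TMM scaling and filterByExpr, with Benjamini-Hochberg adjustment over all genes tested. The study itself used DESeq2, which is an alternative here. Thresholds were an adjusted p of 0.05 and, where stated, 0.5 for the absolute log2 fold change. Its standard error was taken as the log2 fold change divided by the square root of F. Ratios of TPM were tested with exact permutation tests in scipy 1.17.1. Gene positions and transcript GC content are from GENCODE v44, which held 61228 of the 61228 names. Fits were also run on simulated data, with planted changes larger than those of the members and related genes, so that run does not bear on changes of their size. Members, lists and tests were chosen with earlier results of these data known. The genes named are the members, the related genes with an adjusted p under 0.05, and for *LMNB1* the 3 most similar genes. *SIRT7* and the genes named from the marker lists fall outside this rule and were chosen after their values were seen. Alternatives were DESeq2 1.42.0 (size factors and Wald test), other filters, limma 3.58.1 on log2(TPM + 1) and log2(TPM + 0.1), the replicate number as a block, a GC offset, leaving out each library and, added after the data were seen, a transcript length offset.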

Additional observations from a re-analysis of the deposited data

How the results depend on the processing

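None of the 10 genes passed an adjusted p of 0.05 under any of 17 alternative settings, although DESeq2 gave *HMGA2* no adjusted p, and 160 of the 170 values kept their direction. The 10 that turned were small or of low counts. *LMNA* had 0.0330 with the GC offset and 0.0310 with the GC offset and replicate block, and ran from -0.0878 to 0.0103 when each library was left out. *HMGB1* had -0.0213 and -0.0192 under the same settings, and ran from -0.00762 to 0.0929. *HMGA2* had 0.0196 with the replicate block and 0.0445 with the GC offset and replicate block, and ran from -0.37 without CRE replicate 2 to 0.49 without CRE replicate 1. The cause was not tested.

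The 4 calls among related genes became 2 with DESeq2's Wald test, 9 with no filter on low counts, 0 with limma on log2(TPM + 1) with or without the filter and on log2(TPM + 0.1), 0 with the length offset, 3 with the replicate block, and 0 to 5 when each library was left out. Over all genes, 833 calls (207 higher, 626 lower) became 1586 with no filter, 295 with the length offset, 87 (34 higher, 53 lower) with limma on log2(TPM + 1), 85 on log2(TPM + 0.1), and 32 (20 higher, 12 lower) without a filter on TPM. They became 501 without CRE replicate 2, 1287 without CRE replicate 3, and 381, 338 and 305 without CRE + VAF347 replicate 1, 2 or 3. With the fold threshold, 340 became 598 with no filter, 218 with the length offset, 84, 84 and 32 with limma, and 201 to 380 when each library was left out. Whether the replicate numbers pair the libraries was not tested. Deviations of same-numbered libraries from their group means correlated weakly, by 0.07, 0.10 and 0.05. Those of differently numbered libraries correlated by -0.05 to -0.02, and each library correlated best with its own number. Deviations from a group mean sum to 0 for each gene. A positive value for same-numbered libraries thus brings negative values, on average, for the others. With the replicate block 726 genes and 0 members were called. Both ratios were lower with VAF347 under every alternative tried, which for *HMGB2* to *HMGB1* was bound to hold when a library was left out. The exact permutation test could not have passed 0.05 with so few libraries.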

Other observations

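Dividing a gene's estimated count by its TPM gives its effective transcript length in a library, which moves with the transcript forms that Salmon assigned. Relative to the mean of a gene over the 6 libraries, *LMNB1* had an effective length of 0.909 in CRE replicate 3 and 0.989 to 1.04 in the other 5 libraries. For *SIRT1* it ran from 0.914 in CRE replicate 3 to 1.09 in CRE + VAF347 replicate 2. For *HMGA2*, with only 11 to 36 counts, it was 0.904 to 0.949 with CRE and 1.03 to 1.11 with VAF347, so that the groups did not overlap. How many of all genes separate the groups in effective length was not counted. For *MACROH2A1*, whose splice forms differ in function, it was 0.983 to 1.02, among the narrower ranges of all genes tested (percentile 12.6). With these lengths as an offset in the edgeR fit, *LMNB1* had a log2 fold change of -0.17 (adjusted p = 0.395) and *SIRT1* 0.13 (adjusted p = 0.675).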
